A study of Caenorhabditis elegans with 3 samples.

Results

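The GATA factor genes of Caenorhabditis elegans were examined for binding of EGL-27 in whole larvae of the L2 stage. The set comprised 9 named genes, elt-1, elt-2, elt-3, elt-4, elt-6, elt-7, egl-18, end-1 and end-3, of 19973 protein-coding genes in the annotation (Ensembl release 115, WBcel235). They were taken by name, and each region with its summit between 10000 bp upstream of a gene's 5' end and its 3' end was counted for that gene. The data came from chromatin immunoprecipitation and sequencing (ChIP-seq) of 1 group of 3 biological replicates, with no second condition. All animals were of strain OP177, with the unc-119(ed3) III allele and the insertion wgIs177, and carried EGL-27 fused at its C-terminus to GFP and FLAG. They were pooled males and females, of unknown age beyond the L2 stage, and chromatin was sheared by sonication.

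GATA factors are zinc finger proteins that bind the letters GATA and direct the fate of whole tissues. In the worm, ELT-1 specifies the epidermis in the embryo, ELT-3 acts after it in the main epidermis, and EGL-18 and ELT-6 keep the stem-like seam cells of the epidermis. END-1 and END-3 specify the endoderm, and ELT-2 and ELT-7 then drive the differentiation of the intestine. EGL-27, related to the MTA proteins found in the chromatin remodelling complex NuRD, carries a GATA-type zinc finger itself. Whole animals were used, so strong binding in a few cells and weak binding in many cannot be told apart.

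A pair of intronic regions, in elt-1 and egl-18, were the regions at these genes that the authors kept by the irreproducible discovery rate (IDR). The region in elt-1 spanned chrIV:9615669-9615811 on ce11 and had a signal of 95.2, the authors' value for each region, whose scale is not named. The region in egl-18 spanned chrIV:1911260-1911609, had a signal of 41.6, and also lay in the window of elt-6, the next gene downstream. In all, 3 of 9 genes had an IDR region in the window, against 22.0% of all protein-coding genes, and elt-6 was counted only through the region it shares with egl-18. With 9 genes and 1 region counted for 2 of them, this share is not read as a difference from all genes. The genes elt-2, elt-3, elt-4, elt-7, end-1 and end-3 had 0 IDR regions.

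The sequences of 201 bp centred on the summits, from RefSeq's WBcel235 (ce11) genome, show what lay under these regions, 5' to 3' on the plus strand, which is the coding strand of every member, with GATA and its reverse complement TATC in capitals. The IDR regions are that of elt-1 at +741 bp (chrIV:9615636-9615836) and that of egl-18 at +9113 bp (chrIV:1911335-1911535). The elt-3 sequence (chrX:13937355-13937555) is from that gene's strongest region, which missed the IDR set narrowly, and the elt-1 sequence at -776 bp (chrIV:9614119-9614319) is from its promoter. The last 3, upstream of elt-2 (chrX:10479288-10479488, chrX:10479545-10479745 and chrX:10480621-10480821), hold the regions nearest its 5' end.

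elt-1 +741: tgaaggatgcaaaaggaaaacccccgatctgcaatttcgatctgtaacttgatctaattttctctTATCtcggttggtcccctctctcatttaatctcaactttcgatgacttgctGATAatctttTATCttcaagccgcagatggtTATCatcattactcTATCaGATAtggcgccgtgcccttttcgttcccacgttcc

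elt-1 -776: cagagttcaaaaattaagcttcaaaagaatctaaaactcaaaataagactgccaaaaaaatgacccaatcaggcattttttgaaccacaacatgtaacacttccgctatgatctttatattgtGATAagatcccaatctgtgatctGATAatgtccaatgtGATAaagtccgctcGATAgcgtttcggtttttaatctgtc

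egl-18 +9113: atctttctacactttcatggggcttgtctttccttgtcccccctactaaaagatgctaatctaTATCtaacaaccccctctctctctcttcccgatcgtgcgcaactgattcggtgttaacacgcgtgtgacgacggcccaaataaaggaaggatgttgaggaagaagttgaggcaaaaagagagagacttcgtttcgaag

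elt-3 +2581: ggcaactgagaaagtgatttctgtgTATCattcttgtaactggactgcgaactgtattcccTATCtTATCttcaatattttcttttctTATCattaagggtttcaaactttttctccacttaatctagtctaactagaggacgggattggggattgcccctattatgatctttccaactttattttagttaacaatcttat

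elt-2 -1852: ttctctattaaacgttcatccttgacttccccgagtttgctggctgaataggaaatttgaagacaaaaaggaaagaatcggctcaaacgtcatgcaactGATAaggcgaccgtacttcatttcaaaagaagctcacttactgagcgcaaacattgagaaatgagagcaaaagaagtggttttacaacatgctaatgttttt

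elt-2 -1595: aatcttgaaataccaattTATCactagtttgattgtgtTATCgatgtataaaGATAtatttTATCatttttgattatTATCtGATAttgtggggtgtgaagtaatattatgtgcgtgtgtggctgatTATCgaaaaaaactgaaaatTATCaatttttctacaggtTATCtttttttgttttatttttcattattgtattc

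elt-2 -519: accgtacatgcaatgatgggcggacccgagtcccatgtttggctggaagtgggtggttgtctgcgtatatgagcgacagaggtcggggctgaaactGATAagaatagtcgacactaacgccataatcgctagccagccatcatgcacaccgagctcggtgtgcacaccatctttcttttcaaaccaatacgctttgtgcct

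The elt-1 sequence at +741 bp held 2 copies of GATA on the plus strand and 4 on the minus strand, and that at -776 bp held 4 and 0. That in egl-18 held 0 and 1. The elt-3 sequence held 0 and 4. Upstream of elt-2, the summits at -1852 and -519 bp held 1 copy each, and the summit at -1595 bp held 2 on the plus strand and 7 on the minus strand. Of sequences not shown, the egl-18 summit at +12854 bp, with a signal of 33.7, held 1 copy on the plus strand and 0 on the minus strand. The strongest end-3 region, with its summit at -6202 bp, held 0 and 2. The sequences shown were picked and do not stand for all the regions at these genes. A match of letters is a description and not a site.

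The authors' longer list of peaks and background, made from the 3 replicates pooled, held 30000 regions, and 48 of them lay in the windows of the GATA factor genes. The elt-1, elt-3, egl-18, elt-6, end-3 and elt-2 windows held at least 1 and those of end-1, elt-7 and elt-4 held 0. These 6 of 9 genes stood against 88.2% of all protein-coding genes with a pooled region in the window. Pooled regions include background, so a gene with a pooled region is not called bound. The median signal of the 48 regions was 11.7, against 10.7 over the pooled list, and the lowest was 7.004, against 6.68. Of the 48, 4 carried the highest −log10 q-value of the pooled list, 3.645, which 2210 pooled regions shared. The median window was 12417 bp for the 9 genes and 12026 bp for all genes. The median number of pooled regions was 4 for the 9 genes and 3 for all genes.

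**Figure D1:**
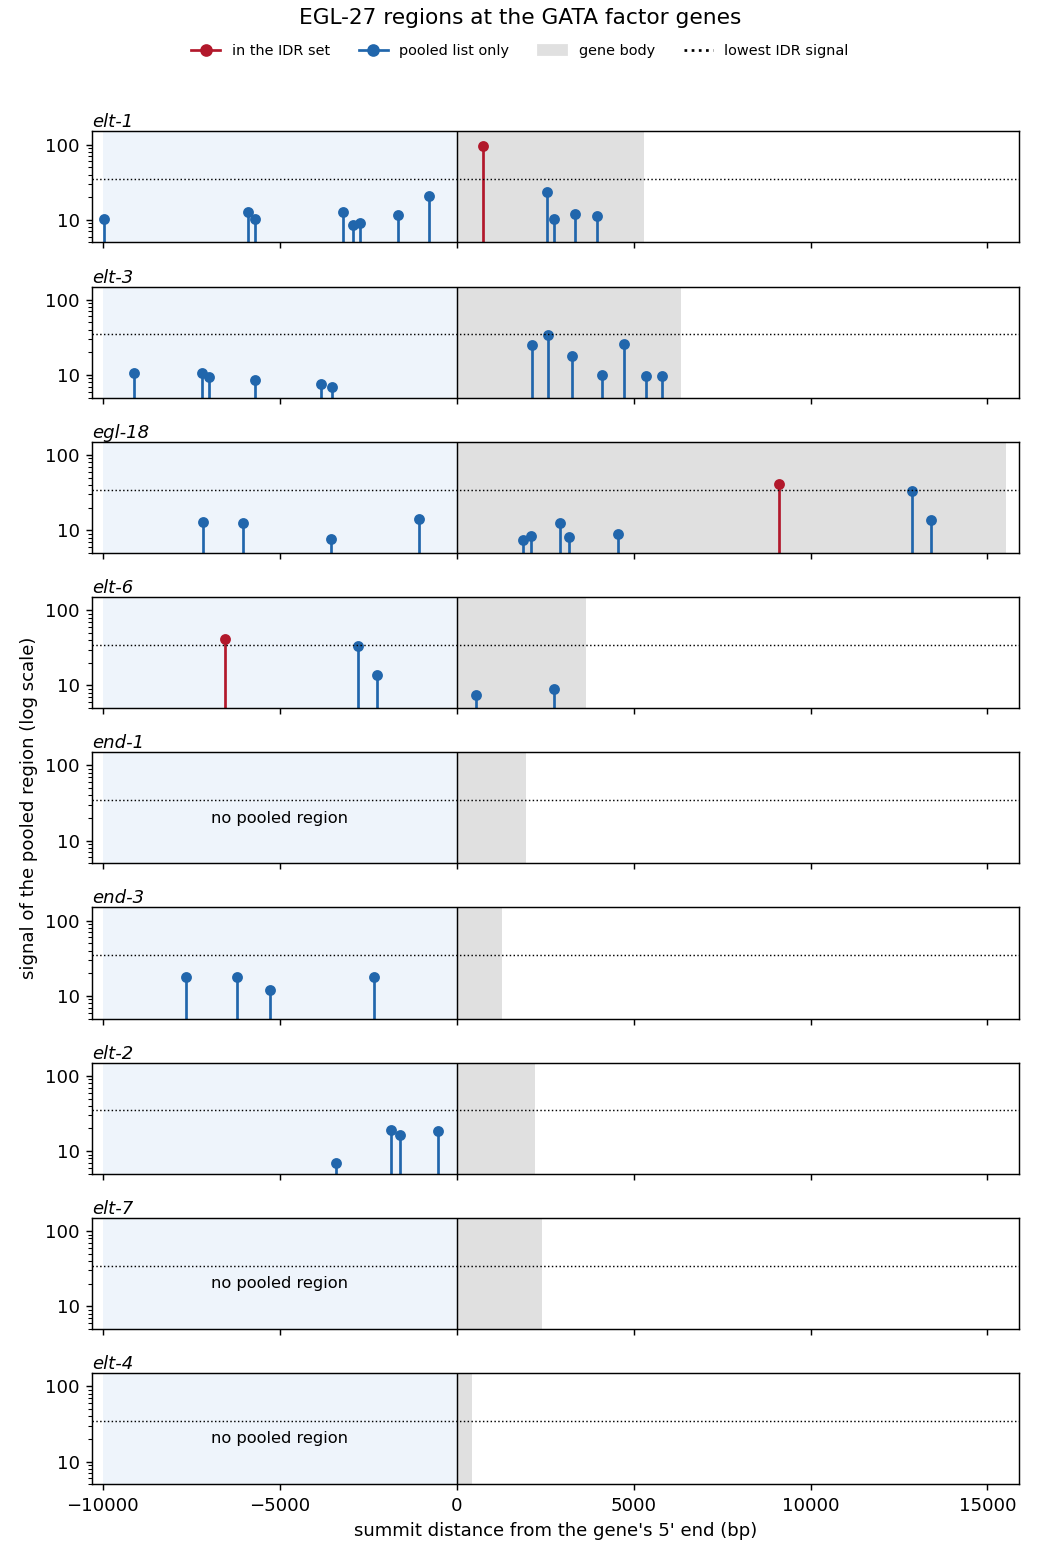
Signal of each pooled region (log scale) against the distance of its summit from the gene's 5' end in bp, for the 9 genes in rows; red points are in the IDR set and blue points only in the pooled list, grey shading is the gene body, pale blue the 10000 bp upstream, and the dotted line the lowest IDR signal, 34.8. The elt-1 point at +741 bp stands highest (95.2), and the egl-18 point at +9113 bp is the same region as the elt-6 point at -6542 bp.

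Among the regulators of the epidermis, elt-1 (chrIV:9614995-9620280, plus strand) had the region of highest signal and the densest window. The summit of its IDR region lay 741 bp downstream of the gene's first 5' end, in intron 2 of the transcripts W09C2.1a.1 and W09C2.1d.1 and intron 1 of W09C2.1c.1. It stood at -254 bp from the nearest annotated internal 5' end, that of the transcript W09C2.1f.1, which starts 995 bp into the gene. The pooled signal of 95.2 ranked 270 among 1997 IDR regions, whose median was 50.8. In the replicates' own lists the overlapping region had signals of 4.64, 31.5 and 58.4 in replicates 1, 2 and 3, at ranks 3277, 486 and 163. It was thus among the stronger regions of replicates 2 and 3 and less far up the list of replicate 1, which is shorter (13245 regions, against 30000 in each of the others).

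The other 12 pooled regions at elt-1 had lower pooled signals, of 8.67 to 23.2. In replicate 1 the order differed, since the region at -3215 bp was its strongest at elt-1, with a signal of 5.47 at rank 2194, ahead of the IDR region. The next in order were a summit in the intron at +2547 bp (chrIV:9617367-9617716, signal 23.2, listed in replicates 2 and 3) and one at -776 bp, in the promoter (chrIV:9614044-9614393, signal 21.1, listed in replicate 3 only, with a signal of 13.5 at rank 3560). Further summits in introns stood at +2759, +3334 and +3959 bp, with signals of 10.2, 11.95 and 11.1. Those upstream stood at -9960, -5905, -5700, -3215, -2936, -2737 and -1647 bp, with signals of 10.2, 12.9, 10.4, 12.7, 8.67, 9.05 and 11.5. Of the intronic regions, those at +2759 and +3334 bp were listed in replicates 2 and 3 and that at +3959 bp in replicate 2. Of the upstream regions, replicate 1 listed those at -3215, -2936 and -2737 bp, replicate 2 those at -9960 and -1647 bp, and replicate 3 those at -5905, -5700, -3215 and -2936 bp, so that none was in all 3. Some neighbours overlapped the same replicate region, as +2547 and +2759 bp did in replicates 2 and 3. So did -3215 and -2936 bp in replicate 3, and -2936 and -2737 bp in replicate 1. The summit at -3215 bp fell in the noncoding RNA gene W09C2.11. The sequence upstream of elt-1 was empty of protein-coding genes for 13299 bp, and 11 of the 13 summits were nearer its 5' end than that of any other protein-coding gene. With 13 regions in 15286 bp, elt-1 had 8.5 pooled regions per 10 kb, more than 98.7% of protein-coding genes. This density counts overlapping regions separately, such as those at +2547 and +2759 bp. Apart from the regions at +741, +2547 and -776 bp, the −log10 q-values at elt-1 were only 0.317 to 0.848.

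The gene elt-3 (chrX:13934874-13941216, plus strand) had no IDR region, and its strongest pooled region lay just under the IDR set. That region (chrX:13937280-13937629, summit at +2581 bp) had a signal of 34.2, against a lowest IDR signal of 34.8, and ranked 2047 in the pooled list, with the highest −log10 q-value, 3.645. It was listed in replicates 2 and 3, with signals of 14.2 and 18.3 at ranks 2360 and 2069, and was not listed in replicate 1. Its summit lay in an intron of 3622 bp of the 3 transcripts that start furthest upstream, at -1288 bp from the internal 5' end of K02B9.4a.1.

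The elt-3 gene body held 7 of its 13 pooled regions, and the 3 next strongest were in introns too. They were the summits at +4721 bp (chrX:13939420-13939769, signal 25.8), +2129 bp (chrX:13936828-13937177, signal 25.03) and +3252 bp (chrX:13937951-13938300, signal 17.7). The first stood at -131 bp from the 5' end of the short transcript K02B9.4d.1, and the summit at +2129 bp also fell in the noncoding RNA genes K02B9.7 and K02B9.8, which lie inside elt-3 and leave its class as intron. The region at +2129 bp was listed in replicates 1 and 3, with signals of 2.99 and 14.3, and the other 2 in replicates 2 and 3. The summits at +4110, +5347 and +5815 bp had signals of 9.92, 9.745 and 9.79, and the last pair fell in coding exons. Replicate 2 listed those at +4110 and +5815 bp, and replicate 3 those at +4110 and +5347 bp. The 6 upstream regions were weak. Their summits at -9132, -7203, -6992, -5688, -3830 and -3520 bp had signals of 10.7, 10.6, 9.33, 8.55, 7.72 and 7.016, and were all nearer the 5' ends of meg-1 or meg-2, which encode germ granule proteins, than that of elt-3. Replicate 2 listed the region at -7203 bp, replicate 3 those at -5688, -3830 and -3520 bp, and no replicate those at -9132 and -6992 bp. Those at -3830 and -3520 bp overlapped the same region of replicate 3. The density at elt-3 was 7.95 pooled regions per 10 kb, more than 98.0% of protein-coding genes. Overlapping regions, such as those at -3830 and -3520 bp, were counted separately there too. Apart from the strongest region and the 3 next strongest, the −log10 q-values at elt-3 were only 0.176 to 0.541. Of its 13 regions, 0 were listed in all 3 replicates.

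The genes egl-18 (chrIV:1902322-1917840) and elt-6 (chrIV:1917977-1921643) lie 136 bp apart on the plus strand, and 3 pooled regions fell in both windows. The IDR region they shared had its summit 9113 bp into egl-18, in an intron of 11092 bp of the transcript F55A8.1a.2, and stood at -2011 bp from the internal 5' end of F55A8.1b.1. At -6542 bp from the 5' end of elt-6, it was nearer that gene's start than the first start of egl-18. Its pooled signal of 41.6 ranked 1445 among the 1997 IDR regions, below their median of 50.8. The overlapping regions of replicates 1, 2 and 3 had signals of 7.43, 8.30 and 27.3, at ranks 846, 6110 and 984. Here the region was furthest from the top of the list in replicate 2, and at elt-1 in replicate 1.

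A further intronic region of egl-18 also stood just under the IDR set. It lay at chrIV:1915001-1915350, with its summit at +12854 bp of egl-18 and -2801 bp of elt-6, with a signal of 33.7, the highest −log10 q-value and rank 2110. It was listed in replicates 2 and 3, with signals of 13.6 and 22.7 at ranks 2553 and 1400, and not in replicate 1. The third region that the pair shared (summit at +13396 bp in egl-18, signal 13.7) was listed in replicate 1 only.

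The other regions at egl-18 and elt-6 had signals of 14.2 or less. In the first intron of the long egl-18 transcript, summits at +1868, +2101, +2921, +3178 and +4545 bp had signals of 7.44, 8.51, 12.6, 8.21 and 8.85. Upstream, summits at -7177, -6026, -3551 and -1066 bp had signals of 12.8, 12.4, 7.74 and 14.2. The last of these was the nearest to the egl-18 5' end, and all 3 replicates listed it, with low signals of 2.86, 4.204 and 4.22. Replicates 1 and 2 listed the region at -7177 bp, replicates 2 and 3 that at -3551 bp, and no replicate that at -6026 bp. In the intron, replicate 2 listed all 5 and replicate 3 all but that at +1868 bp. There the summits at +1868 and +2101 bp overlapped the same region of replicate 2. Those at +2921 and +3178 bp overlapped the same region in replicate 2, and likewise in replicate 3. In elt-6 itself, summits in introns at +545 and +2749 bp had signals of 7.54 and 8.95, of which replicate 3 listed the first and no replicate the other. The densities were 4.70 pooled regions per 10 kb for egl-18 and 3.66 for elt-6, more than 81.1% and 67.5% of protein-coding genes.

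**Figure D2:**
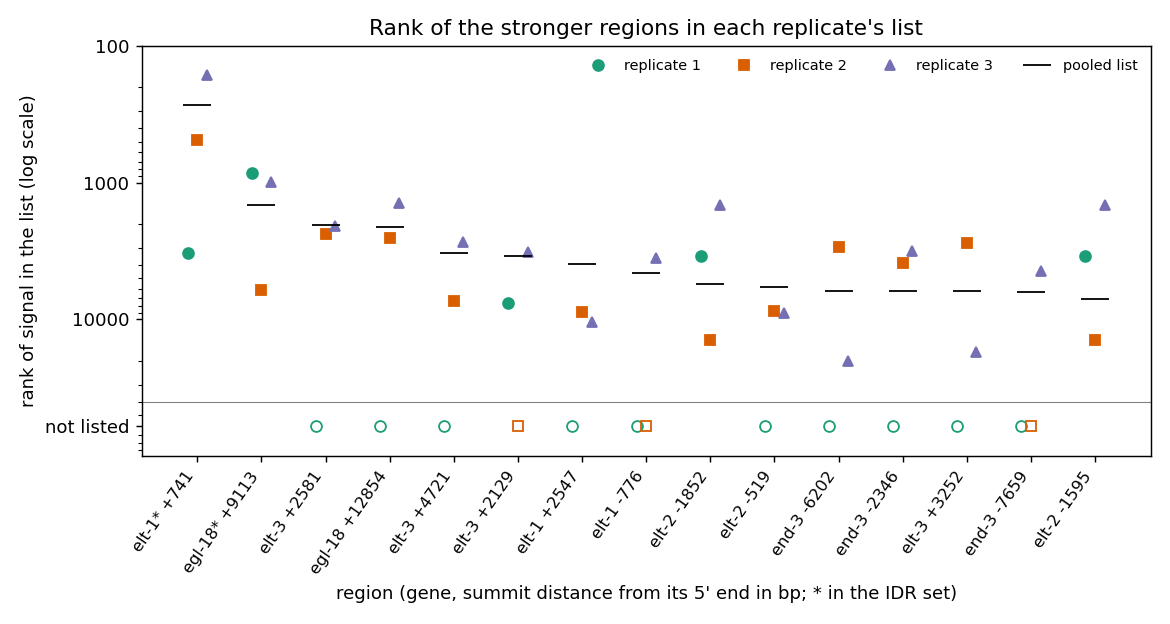
Rank of signal (log scale, strongest at the top) of the 15 member regions with a pooled rank of 8000 or better, in the pooled list (dash) and in the lists of replicates 1, 2 and 3 (filled points); open points mark regions that a replicate's list lacks. The labels give the gene and the summit distance from its 5' end in bp, and an asterisk marks the IDR set. Replicate 1 lists 5 of the 15, among them both IDR regions, and elt-2 regions at -1852 and -1595 bp share 1 region of each replicate.

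Neither of the genes that specify the endoderm had an IDR region, and none of the pooled regions near them was nearest to their 5' ends. For end-1 (chrV:13985128-13987074) the pooled list held 0 regions, and the nearest pooled summit to the 5' end lay 4582 bp away, beyond the 3' end. Replicates 1 and 3 listed 2 and 1 regions in its window, the strongest with signals of 3.96 (rank 4632, summit at -3882 bp) and 8.07 (rank 8978, summit at -3129 bp), and replicate 2 listed 0. For end-3 (chrV:14014695-14015980) there were 4 pooled regions, all upstream. Their summits at -7659, -6202, -5277 and -2346 bp had signals of 17.6, 17.8, 12.1 and 17.7. All 4 were nearer other genes, ric-7, ddx-17 and aip-1, and the last stood 16 bp downstream of the 5' end of aip-1. Replicate 1 listed 0 regions in the end-3 window, while replicates 2 and 3 listed 4 and 6. Of the 4 pooled regions, those at -6202 and -2346 bp were in both these lists, that at -5277 bp in replicate 2 and that at -7659 bp in replicate 3.

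At elt-2 (chrX:10481240-10483441), the gene of intestinal differentiation, a cluster of 3 weak regions preceded the 5' end. Their summits lay at -1852 bp (chrX:10479213-10479562, signal 19.1), -1595 bp (chrX:10479470-10479819, signal 16.4) and -519 bp (chrX:10480546-10480895, signal 18.5). The first pair overlapped the same replicate regions, with signals of 4.57, 5.12 and 22.0 in replicates 1, 2 and 3, at ranks 3419, 14118 and 1462. The region at -519 bp was listed in replicates 2 and 3, with signals of 6.79 and 8.04 at ranks 8712 and 9041, and not in replicate 1. A region of lower pooled signal (summit at -3419 bp, signal 7.004, listed in replicate 1 only) lay in a UTR, nearest the 5' end of the neighbour C39B10.7. In replicate 1 it had a signal of 6.06 at rank 1614, above the region that overlaps the summits at -1852 and -1595 bp. None of the 4 reached the lowest IDR signal of 34.8, and the density of 3.28 per 10 kb was above that of 60.5% of genes.

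For elt-7 (chrV:4770670-4773086), which acts beside elt-2, the pooled list held 0 regions, with the nearest summit 438 bp outside the window. Replicate 3 listed 2 regions there, of which the stronger had its summit 2 bp downstream of the 5' end with a signal of 4.61, at rank 21585 of 30000. Replicate 1 listed 1, at -9688 bp with a signal of 2.30, and replicate 2 listed 0. The short gene elt-4 (chrX:10475527-10475959), a neighbour of elt-2, had 0 regions in the pooled list and in replicates 2 and 3. Replicate 1 alone listed 3 in its window, and the strongest of them (chrX:10474701-10474970, summit at -691 bp, in the noncoding RNA gene linc-83) had a signal of 13.5 and ranked 150 of 13245. The window of elt-2 holds elt-4, so this region also stood at -6404 bp from elt-2. Of all protein-coding genes, 2355 (11.8%) had 0 pooled regions in the window. On chromosome V, which holds end-1, end-3 and elt-7, the share was 16.5%, and on X, which holds elt-2, elt-3 and elt-4, it was 8.68%.

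**Figure D3:**
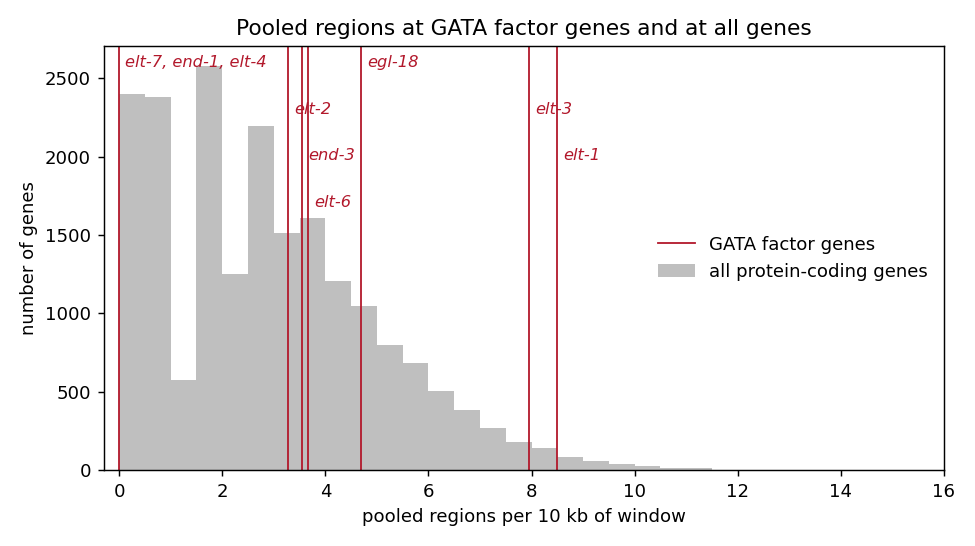
Number of pooled regions per 10 kb of window at the GATA factor genes (red lines) and at all 19973 protein-coding genes (grey histogram, number of genes). Overlapping regions are counted separately. The genes elt-1 (8.5) and elt-3 (7.95) lie in the right tail, egl-18, elt-6, end-3 and elt-2 between 3.28 and 4.70, and end-1, elt-7 and elt-4 at 0; the axis ends at 16, past which 1 gene lies.

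Over the 48 regions, presence in the replicates was close to that of the whole pooled list. Replicate 1 listed 12 of 48 (25%), against 22.2% of all pooled regions. Replicate 2 listed 29 (60.4%), against 60.5%, and replicate 3 listed 33 (68.8%), against 64.0%. In all 3 replicates there were 5 of the 48 (10.4%), against 10.7%, and 4 (8.33%) were in none, against 11.4%. Of all IDR regions, replicates 1, 2 and 3 listed 60.1%, 99.5% and 99.6%. The 5 were the IDR regions of elt-1 and egl-18, the egl-18 region at -1066 bp and the elt-2 regions at -1852 and -1595 bp. The elt-2 pair overlapped the same region of each replicate, which was thus counted for both. Some neighbours at elt-1, elt-3 and egl-18 also shared a replicate region. The counts of presence are therefore of pooled regions and not of separate replicate regions. Replicates 2 and 3 both listed 21 of the 48, replicates 1 and 3 both listed 8, and replicates 1 and 2 both listed 6, with the IDR regions of elt-1 and egl-18 among them each time.

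By position, the summits lay mostly in introns and between genes. Each was put in the first class that held it, promoters before exons, exons before introns, and introns of protein-coding genes before noncoding RNA genes, with promoters taken at the first 5' end of each gene. Introns held 20 of the 48, other intergenic sequence 16, coding exons 7, promoters (1000 bp upstream to 200 bp downstream of that 5' end of a protein-coding gene) 3, and a UTR and a noncoding RNA gene 1 each. Only 2 of the 3 promoter summits belonged to a member, those of elt-1 at -776 bp and elt-2 at -519 bp. Both IDR regions were intronic, a class that held 22.7% of all IDR regions, while promoters held 46.6%. The elt-1 IDR summit, at -254 bp from the start of W09C2.1f.1, would be in a promoter if internal 5' ends were counted, as would some other intronic summits of elt-1 and elt-3, such as those at -384 bp from W09C2.1e.1 and -131 bp from K02B9.4d.1. Of the 48 summits, 22 were inside a member gene and 26 upstream of one, and 35 were nearest the 5' end of a member. Shares of these classes and places over the whole pooled list are not given here. The counts of the 48 are thus not read as particular to these genes.

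Letters that GATA factors bind were common at the members' summits. Within 100 bp of the summit, GATA stood on either strand in 40 of 48 regions (83.3%), against 72.0% of all pooled regions and 70.1% of IDR regions. The longer words AGATAA and TGATAA, counted together on both strands, each of which contains GATA, stood in 22 of 48 (45.8%), against 28.4% of pooled regions and 24.3% of IDR regions. In windows of the same length centred 500 bp to each side, AGATAA or TGATAA stood in 28.1% of 96 at the members and in 27.4% at all pooled regions. GATA alone stood in 82.3% of these flanking windows at the members and in 71.8% at all pooled regions, close to the shares at the summits. The median G+C content within 100 bp was 41.8% at the members and 39.3% over all pooled regions. Within 50 bp of the summit the words stood in 13 of 48, against 15.8% of pooled regions. Some neighbouring regions overlapped in part, as 2 of those at elt-2 do. Some flanking windows overlapped a neighbour's summit window, as at the elt-3 summits at +2129 and +2581 bp. The 48 are thus not independent, and no test was made of these shares.

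The word ACTGATAA, which was looked for after the sequences had been seen, stood on either strand in 4 of 48 regions (8.33%), against 2.64% of pooled regions. Of these 4, 3 were at elt-2, the summits at -3419, -1852 and -519 bp, and the other at elt-6 (+545 bp). The 2 IDR regions differed: that of elt-1 held 4 matches to AGATAA or TGATAA and that of egl-18 held 0. At elt-2 the summit at -1595 bp, with 5 matches and a G+C content of 24.9%, held the most of the 48.

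Other genes of the same pathways were counted in windows drawn the same way, from lists of 43 names of which 42 matched. Among 10 regulators that act above the endoderm genes, 7 had an IDR region, against 22.0% of all genes, and their median number of pooled regions was 5.5, against 3. Their windows, of 12198 bp (mom-2) to 32414 bp (lit-1), were all longer than the median of 12026 bp over all genes, and the counts were not adjusted for this. The strongest regions were at cbp-1, a CBP/p300 acetyltransferase (signal 151.6, summit at -821 bp), skn-1, the maternal activator of the endoderm cascade (signal 90.9, +3120 bp), sys-1, a beta-catenin (signal 73), mom-2, a Wnt ligand (signal 72.4), and lit-1, a Nemo-like kinase (signal 43.03). The other 2 were mom-5 and wrm-1, which were counted by the same rule. In 5 of the 7 the strongest region was nearer another gene's 5' end, namely his-68 for sys-1, srsx-22 for mom-2, W06F12.2 for lit-1, algn-10 for mom-5 and arf-1 for wrm-1. Those of cbp-1 and skn-1 were nearest their own.

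Of 9 other regulators of epidermis and seam cells, 3 (33.3%) had an IDR region, against 22.0% of all genes. These were the nuclear receptor genes nhr-25 (signal 42.6, +1361 bp) and nhr-23 (signal 41.4, +2614 bp) and the zinc finger gene lin-26 (signal 38.4, -5409 bp), whose region was nearer the 5' end of lir-1. The windows of the 9 ran from 12315 to 22519 bp, against a median of 12026 bp over all genes. Of 14 intestinal genes known as ELT-2 targets, 1 (7.14%) had an IDR region, against 22.0% of all genes. This was spl-1, a sphingosine phosphate lyase, and the stronger of its 2 (signal 64.7) stood at -293 bp from the 5' end of rps-24. All 14 had pooled regions, against 88.2% of all genes, with a median of 6.5, against 3. The windows of the 14 ran from 10404 to 31757 bp. A further list held 5 genes taken as partners of GATA factors, ceh-60, fkh-6, unc-130, pqm-1 and daf-16, a role that was not tested here. Of these, only the FOXO gene daf-16 had IDR regions, 4 of them in a window of 36206 bp. The median window over all genes was 12026 bp. The strongest of the 4 regions (signal 120.6, summit at +19391 bp) was nearest the 5' end of gpx-8. This 1 of 5 stood against 22.0% of all genes.

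The other genes of GATA-type fingers varied. In the window of med-1, a GATA factor gene that acts above end-1 and end-3, there was 1 IDR region (chrX:12425422-12425771, signal 59.6), at -133 bp from T24D3.2 and -5012 bp from med-1, and med-2 had 0. The MTA homologue lin-40 had 1 (signal 47.4, summit at -890 bp). The egl-27 window, of 22901 bp against a median of 12026 bp over all genes, held 17. The strongest had a signal of 219.1, with its summit at +7847 bp of egl-27, and was nearest the 5' end of tbc-6. The strain carries a tagged egl-27 insertion as well, and the part of that in the egl-27 regions was not tested.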

How the data were processed

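ChIP-seq of tagged EGL-27 was analysed in 1 group of 3 biological replicates, from lists of regions on ce11. Per the notes deposited with the files, each replicate's alignments and a control gave a list of peaks and background. The authors made another such list from the 3 replicates pooled, and kept an IDR set from these lists. The signal value and the −log10 q-value of each region are as the authors deposited them. The scale of the signal is not given in the sources used here, nor are the aligner, caller and cutoff for IDR. Read numbers behind each list, and so its depth, are unknown, and no interval is given. Lists on ce10 and the control were not used here.

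Genes came from Ensembl release 115 and sequence from the RefSeq copy of WBcel235, within whose chromosome lengths every region lay. Summits were counted in windows with Python 3.11.15, pandas 2.3.3 and numpy 2.4.6, checked on placed summits with known answers. A region was present in a replicate where at least 1 bp overlapped a region of its list, and the overlapping region of highest signal gave the replicate's value. With 1 group no test between conditions exists, so shares over all genes or regions are given as background. A planned comparison of the proteins was not made here. All members were named, and of the other lists every gene with an IDR region, with signals for at most 5 a list, those of highest signal. The gene med-2 and the genes taken as partners of GATA factors were named as well. The members and lists were chosen with earlier results of these data known, the word ACTGATAA and the flanking windows after the sequences were seen.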

Additional observations from a re-analysis of the deposited data

How the results depend on the processing

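Of 46 alternative values, 32 stayed within 1.5 times the reported count. The 2 IDR regions stood with 5000, 2000 or 1000 bp upstream, since both summits lay inside a member gene. The genes with an IDR region were 2 of 9 in place of 3 with these shorter windows. Both regions were in every replicate's list, so presence in the remaining lists also held with any 1 replicate left out. The IDR set itself was not remade without a replicate, so these counts cannot say whether it depends on 1 replicate. With the stronger 50% of IDR regions by signal, 1 region and 1 gene were left, elt-1. The 48 pooled regions became 28 with 2000 bp upstream, 24 with 1000 bp, 27 in the stronger 50% of the list, and 6 to 21 when a replicate was left out, as such a region then had to be in both other lists. Genes with a pooled region numbered 4 to 6 then. Among the strongest regions of each replicate, as many as the IDR set holds, 2, 1 and 5 of the 48 were found in replicates 1, 2 and 3, in place of 12, 29 and 33. With summits within 100 bp, replicate 2 listed 19. The words AGATAA and TGATAA were within 50 bp in 13 regions, in place of 22 within 100 bp, and the longer word, chosen after seeing the data, was in 4. The depth behind each list is unknown, and the signal limits comparison to ranks within a list.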
